A study of Mus musculus with 6 samples.

Results

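The genes described here are the clustered histone genes, taken as all 28 of 23930 genes in the deposited table whose symbol begins with Hist1h, Hist2h, Hist3h or Hist4h. By the histone type in the symbol they comprise 6 linker histone H1 genes, 7 H2A, 6 H2B, 3 H3 and 6 H4 genes. GENCODE M21 lists 70 genes with such symbols on the mm10 build, and the other 42 were not in the table and were not analysed here. Transcripts were measured in cells positive for CD31, an adhesion molecule of endothelial cells that many leukocytes and platelets also carry. The cells were sorted from tumours 2 weeks after LLC cells, the Lewis lung carcinoma line of mouse, had been injected under the skin of the flank of C57/Bl6 mice. In 3 libraries (replicates 1, 2 and 3) the injected cells were controls, and in 3 libraries (replicates 4, 5 and 6) they overexpressed BMP9, a secreted bone morphogenetic protein with receptors on endothelium. The overexpression was therefore in the tumour cells and not in the sorted cells, both groups carried LLC tumours, and the labels give neither the age of the mice nor whether each library came from a separate animal. P-values measure the spread between these libraries, which may be technical.

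Histones are the proteins around which DNA is wound. H2A, H2B, H3 and H4 form the core particle, and H1 binds the DNA that links one particle to the next. Most clustered histone genes are replication-dependent: they lie in dense clusters without introns, are transcribed mainly in S phase with the help of the coactivator NPAT, and supply the protein needed to package newly copied DNA. Their mRNAs are the only known class in animal cells that ends in a conserved stem-loop in place of a poly(A) tail. The stem-loop is bound by SLBP, which directs 3′ end formation and translation, and the mRNAs are degraded when DNA synthesis stops. Their level is therefore commonly read beside genes of DNA replication. Some members can also give longer, polyadenylated transcripts in cells that do not divide.

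The stem-loop is shown first because it is what sets this class apart. In the GENCODE M21 transcript sequences a run of 16 bases with the letters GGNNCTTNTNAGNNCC and fully paired arms of 6 bases was found for 19 of the 28 members. Searching the sense strand of transcripts of all 21924 protein-coding genes, 56 genes (0.255%) held such a run, of which 46 were clustered histone genes and 10 were not. Below, 8 members are given from low to high fold change, each as the 16-base element with 5 bases on either side, 5′ to 3′ on the coding strand, with the 4 loop bases in capitals:
Hist1h2bb: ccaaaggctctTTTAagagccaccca
Hist1h2ab: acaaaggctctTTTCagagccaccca
Hist1h1d: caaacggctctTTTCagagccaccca
Hist2h4: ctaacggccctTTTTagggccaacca
Hist1h3d: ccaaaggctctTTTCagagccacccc
Hist1h4i: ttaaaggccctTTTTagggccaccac
Hist1h1c: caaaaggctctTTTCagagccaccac
Hist4h4: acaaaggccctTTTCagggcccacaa
On mm10 these sites were at chr13:23747198-23747223 for Hist1h2bb, chr13:23751567-23751592 for Hist1h2ab, chr13:23555782-23555807 for Hist1h1d and chr3:96262934-96262959 for Hist2h4. Those of Hist1h3d, Hist1h4i, Hist1h1c and Hist4h4 were at chr13:23576239-23576264, chr13:22040961-22040986, chr13:23739507-23739532 and chr6:136803993-136804018. The sites of Hist2h4, Hist1h4i and Hist4h4 are on the minus strand and the other 5 on the plus strand, and all lie in the 3′ UTR, 24 to 54 bases after the stop codon. No such run was found in the models of Hist1h1a, Hist1h1b, Hist1h2ak, Hist2h2ab, Hist1h2aa and Hist1h2ba, which end 48 bases or fewer after the stop codon, nor in the long model of Hist2h2be or those of the pseudogenes Hist1h2al and Hist3h2bb-ps. No match says only that these letters are not in the annotated transcript.

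The values were RPM, the reads of a gene scaled to library depth, from a panel that amplifies a short segment of each gene, so levels of different genes are not compared. Control libraries held 1321762 to 4583428 reads and BMP9 libraries 1974510 to 28380957, and 3 reads corresponded to 0.655 to 2.27 RPM and to 0.106 to 1.52 RPM. All 3 controls and BMP9 replicate 4 carry one run time stamp in their descriptions, and BMP9 replicates 5 and 6 carry a later one. Gdf2, the gene of BMP9, had 0 reads in the controls and 7 in the BMP9 libraries. Pecam1, the gene of CD31, was at 448 ± 84.3 and 303 ± 53.5 RPM (SD, n = 3 each), whereas the other 11 of the 12 endothelial markers together summed to 20.9 to 53.0 RPM in controls and 30.9 to 53.1 RPM in BMP9 libraries. None of the 12 was at 0 in all libraries, but Tek, Erg and Cldn5 were below 1 RPM on average in both groups. Sums of 14 T and NK cell markers were 5871 to 6383 RPM in controls and 739 to 1381 RPM in BMP9 libraries, and those of 14 macrophage and monocyte markers 4449 to 7063 and 17935 to 23982 RPM.

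Clustered histone transcripts were lower in cells from BMP9-overexpressing tumours. The 28 members together summed to 3764, 6627 and 2627 RPM in control replicates 1, 2 and 3, and to 851, 578 and 589 RPM in BMP9 replicates 4, 5 and 6. The groups did not overlap, and the mean was 6.45-fold lower in BMP9 libraries. Of the 28 members, 16 had at least 5 RPM in at least 3 libraries and were tested with limma on log2(RPM + 1) together with all other genes. Of these, 15 fell at an adjusted p of 0.05, 0 rose, and Hist2h2be did not pass, where 35.2% of all 9460 tested genes were called, 22.5% lower and 12.7% higher. At an unadjusted p of 0.05, 15 were lower and 1 higher. The share of all tested genes at that unadjusted p was not computed. With edgeR on reads recovered from the RPM values 14 were lower and 1 higher, where 1421 of all 9460 tested genes were lower and 1693 higher. The median log2 fold change of the 16 was -2.40, with a range of -4.10 to 0.85, while the median over all tested genes was -0.24. That background shift was -0.02 when libraries were rescaled by trimmed means (TMM), and the median of the members was then -2.17. In sorted bulk cells, fewer cells of a type and less RNA per cell cannot be told apart.

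BMP9 libraries lay below every control library for 15 of the 16 tested members, against 31.2% of all tested genes. Hist1h2bm, an H2B gene, passed the filter only through the controls, so a lower level in the BMP9 libraries was built into its choice. Control replicate 2, the library with the fewest reads, was the highest control for 13 of the 16 members and control replicate 3 the lowest for 14. Without control replicate 2, 13 of 15 tested members fell and the median was -1.77. Within the earlier run time stamp, where only BMP9 replicate 4 stands against the controls, the median of the 16 was -2.42. Hist1h1c, Hist1h1e, Hist2h4 and Hist4h4 lost their calls within that stamp. The share of all tested genes called was not computed for either fit.

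**Figure D1:**
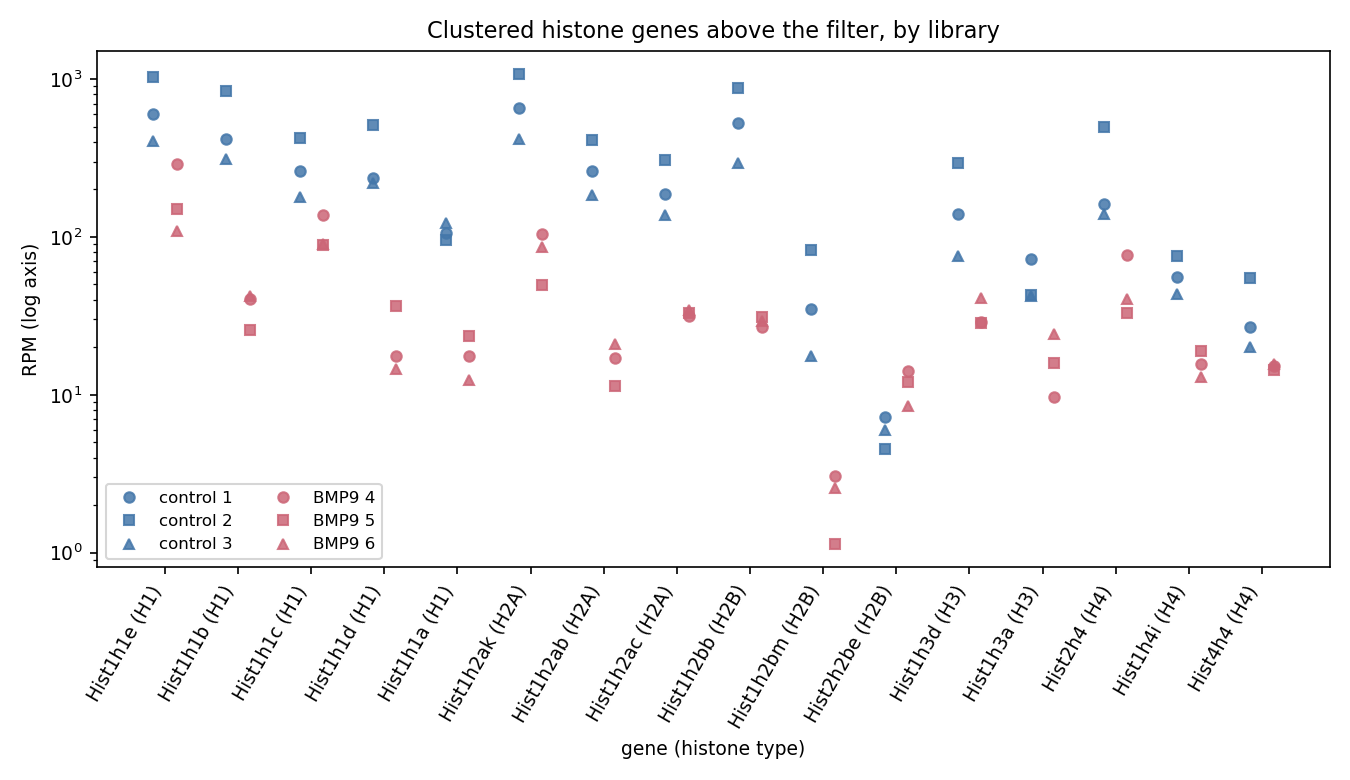
RPM (log axis) of the 16 tested clustered histone genes, ordered by histone type and, within a type, by mean level. Blue points are the 3 control libraries and red points the 3 BMP9 overexpression libraries; the red points lie below the blue ones for 15 genes and above them for Hist2h2be.

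Sums were lower in all 5 histone types when the members of a type were summed. H2B transcripts summed to 572, 969 and 319 RPM in control replicates 1, 2 and 3 and to 45.6, 46.3 and 41.9 RPM in BMP9 replicates 4, 5 and 6, a 13.9-fold lower mean. H2A summed to 1109, 1798 and 743 RPM in controls and to 153, 95.02 and 143 RPM in BMP9 libraries, 9.32-fold lower. For these core types the lowest control was several times above the highest BMP9 library.

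H1 transcripts summed to 1622, 2890 and 1240 RPM in control replicates 1, 2 and 3 and to 504, 325 and 268 RPM in BMP9 replicates 4, 5 and 6, 5.24-fold lower. H3 summed to 213, 336 and 118 RPM in controls and to 38.5, 44.2 and 65.4 RPM in BMP9 libraries, 4.50-fold lower. H4 summed to 248, 633 and 208 RPM in controls and to 109, 66.9 and 71.0 RPM in BMP9 libraries, 4.41-fold lower. No type overlapped between groups. Without control replicate 2 the log2 ratio of the H4 sums was -1.47 in place of -2.14. These sums are descriptions and were not tested, nor were the differences between types.

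**Figure D2:**
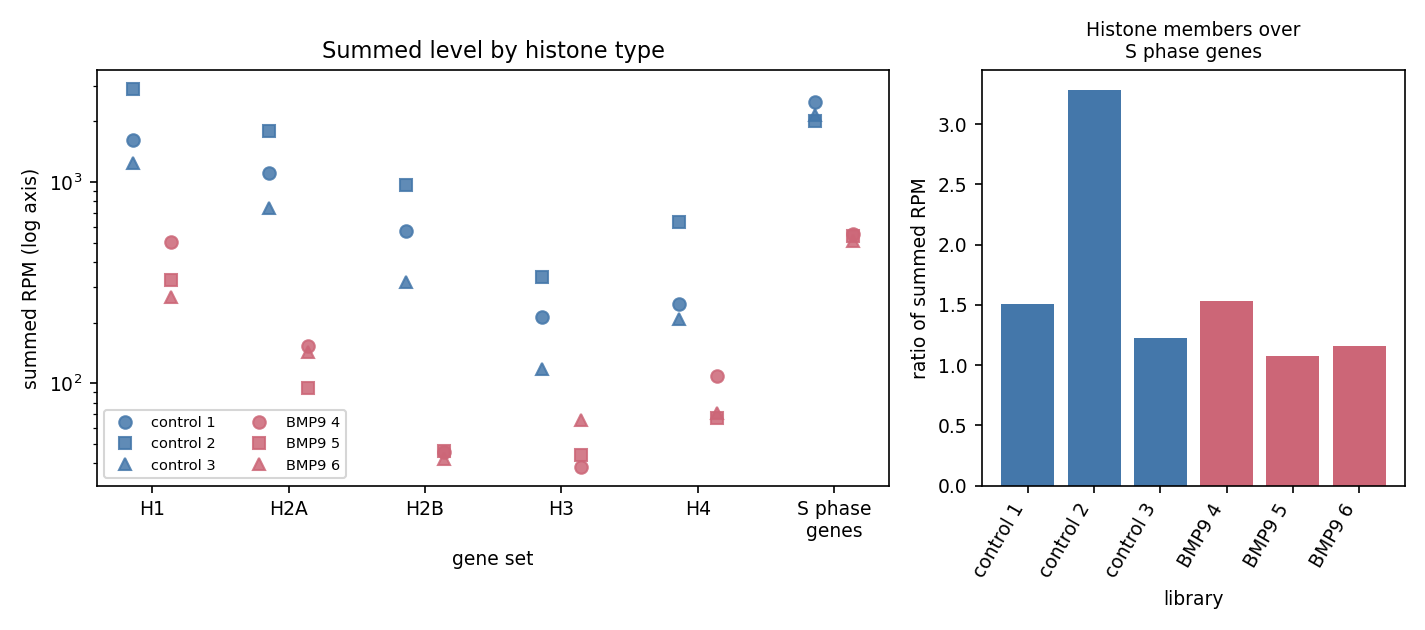
Left, summed RPM (log axis) of the members of each histone type and of 23 S phase genes, one point per library, blue for control and red for BMP9 overexpression. Right, the ratio of the summed clustered histone genes to the summed S phase genes in each library; it is 3.28 in control replicate 2 and between 1.08 and 1.54 in the other 5 libraries.

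All 5 tested H1 genes fell, by values that ranged from -3.75 to -1.38. By coding sequence these genes are the least open to mixed-up reads, since each tested H1 gene was at most 84.0% identical to its nearest copy. Hist1h1b, the H1.5 variant (chromosome 13, 21779883 to 21780625), was at 415, 836 and 310 RPM in control replicates 1, 2 and 3 and at 40.5, 25.6 and 42.2 RPM in BMP9 replicates 4, 5 and 6. The groups were far apart. On the log2 scale the change was -3.71 (SE 0.35), at an adjusted p of 5.2e-06. Hist1h1d, the H1.3 variant (23553262 to 23560686), was at 235, 510 and 221 RPM in controls and at 17.7, 36.7 and 14.5 RPM in BMP9 libraries, a change of -3.75 (SE 0.38, adjusted p = 8.1e-06). Hist1h1a, the H1.1 variant (23763666 to 23764406), was at 106, 96.1 and 123 RPM in controls and at 17.7, 23.6 and 12.5 RPM in BMP9 libraries. It changed by -2.57 (SE 0.31, adjusted p = 2.4e-05), and it was the H1 gene with the closest control values.

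Hist1h1c and Hist1h1e, the H1.2 and H1.4 variants that are also made in many non-dividing cells, had the smallest falls of the H1 genes. Hist1h1c (23738808 to 23740367) was at 262, 421 and 179 RPM in control replicates 1, 2 and 3 and at 138, 88.7 and 89.7 RPM in BMP9 replicates 4, 5 and 6. The highest BMP9 value was close to the lowest control, and the log2 fold change was -1.38 (95% confidence interval -2.07 to -0.70, adjusted p = 0.004). Hist1h1e (23620629 to 23622558) was at 603, 1026 and 408 RPM in controls and at 291, 151 and 109 RPM in BMP9 libraries, a change of -1.90 (interval -2.71 to -1.10, adjusted p = 0.0013). Within the earlier run time stamp both calls were lost, with changes of -0.97 and -1.12 and adjusted p-values of 0.11 and 0.084.

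The makeup of the H1 reads was also set side by side. Hist1h1c and Hist1h1e together gave 53.3%, 50.1% and 47.4% of the H1 RPM in control replicates 1, 2 and 3 and 84.9%, 73.5% and 74.1% in BMP9 replicates 4, 5 and 6. The share of Hist1h1b went from 26.5% ± 2.13 to 10.6% ± 4.50 and that of Hist1h1c from 15.1% ± 0.958 to 29.3% ± 3.58 (SD, n = 3 each). In each library the ratio of Hist1h1c to Hist1h1b compares 2 amplicons of the same RNA, and it was 0.504 to 0.632 in controls and 2.13 to 3.46 in BMP9 libraries. This pairing was chosen after its values were seen and was not tested. Because amplicon yield differs between genes, the shares are of reads and not of H1 molecules. The sixth H1 gene, Hist1h1t, the testis variant, had 2 reads in all controls and 4 in all BMP9 libraries.

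**Figure D3:**
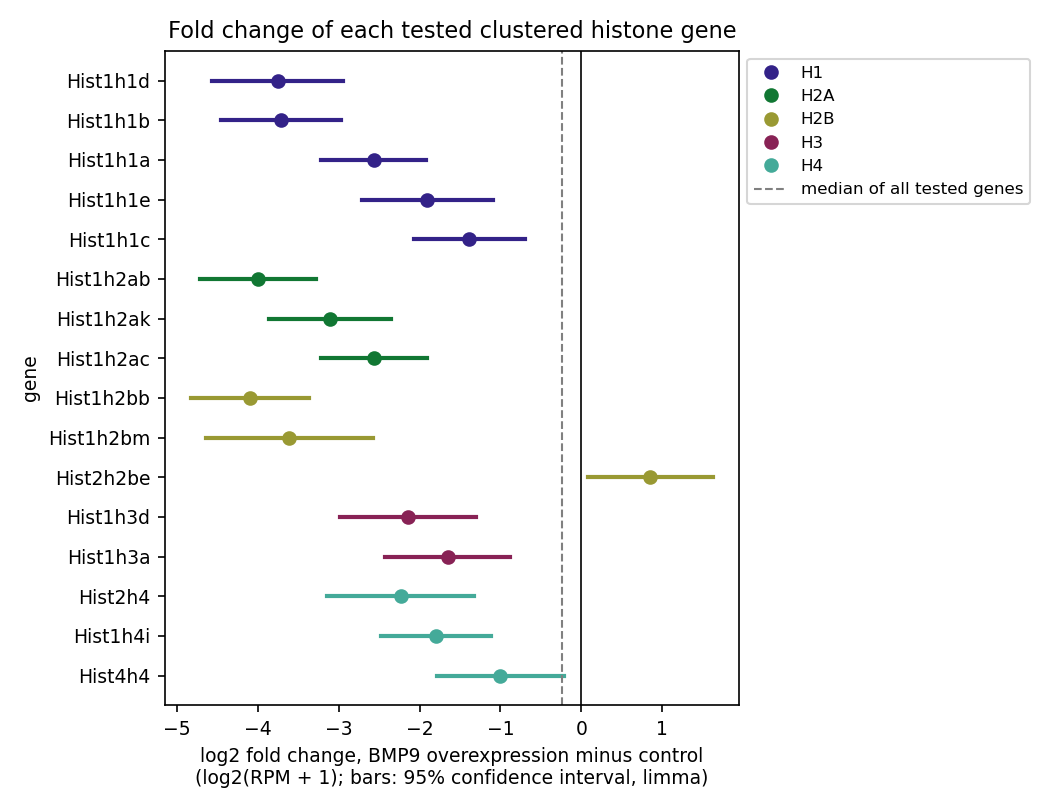
Log2 fold change, BMP9 overexpression minus control, of each tested clustered histone gene with its 95% confidence interval from limma, coloured by histone type; the dashed line is the median of all tested genes, at -0.24. Intervals of 15 genes lie below 0, with Hist1h2bb lowest at -4.10, and that of Hist2h2be lies above 0.

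Of all tested members Hist1h2bb and Hist1h2ab had the largest falls, followed by the H1 genes Hist1h1d and Hist1h1b. Hist1h2bb, an H2B gene (chromosome 13, 23746734 to 23747241), was at 528, 879.9 and 293 RPM in control replicates 1, 2 and 3 and at 26.8, 31.3 and 29.4 RPM in BMP9 replicates 4, 5 and 6. Its BMP9 values varied little and lay far below every control, by -4.10 on the log2 scale (SE 0.34), at an adjusted p of 2.7e-06. Hist1h2ab, an H2A gene (23751126 to 23751598), was at 262, 413 and 183 RPM in controls and at 17.2, 11.3 and 21.035 RPM in BMP9 libraries, a change of -3.99 (SE 0.34). Hist1h2ak (21753435 to 21753827) was at 658, 1074 and 419 RPM in controls and at 104, 49.7 and 86.4 RPM in BMP9 libraries, a change of -3.10 (SE 0.35, adjusted p = 1.8e-05). Among the tested H2A genes Hist1h2ac (23681467 to 23683948) had the smallest change, -2.56 (SE 0.31), from 187, 306 and 137 RPM to 31.4, 32.9 and 34.2 RPM. Hist1h2bm (21722044 to 21722567) was at 35.1, 82.5 and 17.5 RPM in controls and at 3.04, 1.13 and 2.57 RPM in BMP9 libraries, a change of -3.61 (SE 0.48). Its BMP9 values were near the level of 3 reads in replicates 4 and 5.

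Hist2h2be stood apart from the other tested H2B genes, Hist1h2bb and Hist1h2bm, the latter of which passed the filter only through the controls. Hist2h2be, of the Hist2 cluster (chromosome 3, 96221119 to 96223738), is known for giving polyadenylated mRNA in differentiated cells. It was at 7.20, 4.54 and 6.001 RPM in control replicates 1, 2 and 3 and at 14.2, 12.0 and 8.46 RPM in BMP9 replicates 4, 5 and 6. Every BMP9 value was above every control value, as for 16.8% of all tested genes, but the log2 fold change of 0.85 (interval 0.08 to 1.63) did not pass (limma adjusted p = 0.081). It was called higher with TMM factors (1.06, adjusted p = 0.033) and with edgeR (1.14, adjusted p = 0.036). It had 51 reads in all controls together, so its level there is known less well than that of the members above.

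The tested H3 and H4 genes fell too. Hist1h3d, an H3 gene (chromosome 13, 23575763 to 23577011), was at 141, 293 and 75.5 RPM in control replicates 1, 2 and 3 and at 28.9, 28.3 and 41.2 RPM in BMP9 replicates 4, 5 and 6, a change of -2.14 on the log2 scale (SE 0.40, adjusted p = 0.0008). Hist1h3a (23761853 to 23762386) was at 72.2, 43.1 and 42.5 RPM in controls and at 9.62, 15.9 and 24.2 RPM in BMP9 libraries, a change of -1.65 (SE 0.36, adjusted p = 0.0027). For this gene control replicate 1, and not replicate 2, was the highest. Hist2h4 (chromosome 3, 96261682 to 96263311) was at 163, 497 and 139.5 RPM in controls and at 76.5, 33.1 and 40.6 RPM in BMP9 libraries, a change of -2.24 (SE 0.43, adjusted p = 0.001) that was -1.54 (adjusted p = 0.064) within the earlier stamp. Hist1h4i (chromosome 13, 22040636 to 22041362) was at 55.4, 75.7 and 43.5 RPM in controls and at 15.7, 18.8 and 12.9 RPM in BMP9 libraries, a change of -1.79 (SE 0.32, adjusted p = 0.00057).

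Hist4h4, an H4 gene that lies alone on chromosome 6 (136801553 to 136804415), had the smallest fall. It was at 27.1, 55.2 and 20.002 RPM in control replicates 1, 2 and 3 and at 15.2, 14.3 and 15.7 RPM in BMP9 replicates 4, 5 and 6. The groups did not overlap, but the change of -1.0 (SE 0.37, adjusted p = 0.046) was only just inside the threshold. The call was lost in 11 of 14 alternative settings, where the adjusted p of all 14 ranged from 0.024 to 0.21. Without control replicate 2 the change was -0.60.

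The 12 members below the filter were low or not seen in both groups. Hist1h2al, Hist1h4j, Hist1h2ba and Hist1h3f had no read in any library, which allows up to 0.655 to 2.27 RPM in a control and 0.106 to 1.52 RPM in a BMP9 library. Hist1h2aa, which with Hist1h2ba is known from testis, had 0 reads in controls and 2 in BMP9 libraries. Hist2h2ab, an H2A gene of the Hist2 cluster, was at 3.05, 5.30 and 3.50 RPM in control replicates 1, 2 and 3 and at 0.506, 1.13 and 1.13 RPM in BMP9 replicates 4, 5 and 6. Hist1h4a was at 2.18, 2.27 and 2.50 RPM in controls and at 0.506, 0 and 0.775 RPM in BMP9 libraries. Both lay lower in every BMP9 library than in any control, on 28 and 18 control reads, and Hist1h2ae, on 4 control reads, did too. Hist1h2bh, Hist1h4h, Hist1h1t, Hist1h2aa and the pseudogene Hist3h2bb-ps overlapped between groups, with means of 1.82 RPM or less in each. Of these, Hist1h2bh was at 0.873, 1.513 and 1.5 RPM in control replicates 1, 2 and 3 and at 1.013, 0.454 and 0.388 RPM in BMP9 replicates 4, 5 and 6. Over all 28 members the BMP9 libraries lay below the controls for 18, of which 15 were tested. The share of the whole table that did so was not computed.

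Many core histone genes have near-identical coding sequences, so their reads may be hard to place. Of the tested members, Hist1h2ab, Hist1h2ac and Hist1h2ak each had 11 other H2A genes with a coding sequence at least 95% identical, Hist1h3a and Hist1h3d had 8, Hist1h2bm had 10, Hist1h4i had 5 and Hist1h2bb had 1. Hist2h2be, Hist2h4 and Hist4h4 had none, with 88.4%, 91.3% and 87.1% identity to the nearest copy. Hist1h4j and Hist1h3f, with no reads, were 98.4% and 98.8% identical to theirs. Positions of the amplicons and the handling of reads with several matches were not used here. Whether any read could have come from more than 1 gene was therefore not examined.

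Along the genome, 13 of the 16 tested members lie in the Hist1 cluster on chromosome 13. The cluster spans 55 annotated genes between 21715763 and 23934851, in 4 groups of genes more than 100 kb apart. In the first group, from 21715763 to 21837530, Hist1h2bm, Hist1h2ak and Hist1h1b changed by -3.71 to -3.10. In the third, from 23531050 to 23764406, the 9 tested genes ranged from -4.10 to -1.38, a range that covers the values of the first group and that of Hist1h4i in the second (-1.79). Hist1h1c and Hist1h2bb, adjacent among the tested genes, changed by -1.38 and -4.10.

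**Figure D4:**
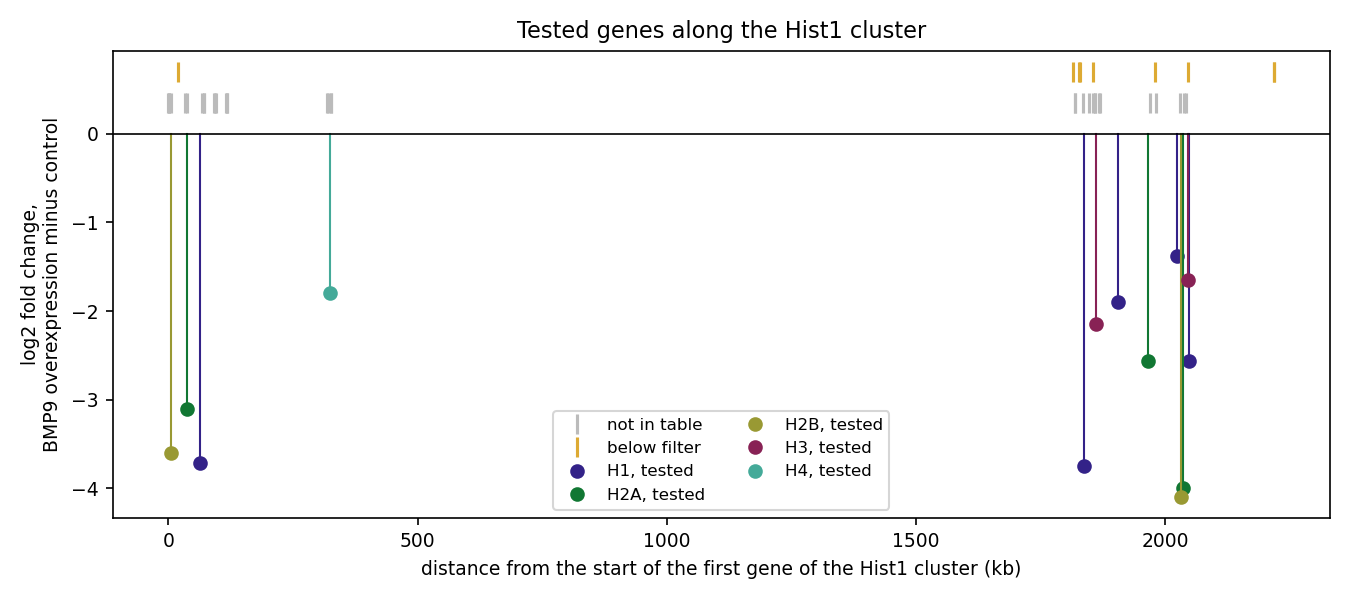
Log2 fold change, BMP9 overexpression minus control, of the 13 tested genes of the Hist1 cluster against distance in kb from the start of its first gene, coloured by histone type. Ticks above 0 mark the 9 members below the filter and the 33 annotated genes that were not in the table; steep and shallow falls lie side by side near the right end.

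The annotated length after the stop codon differed among the members. All 28 have 1 exon and 1 GENCODE M21 model. For 9 tested members the model runs more than 100 bases past the stop codon, up to 4931 bases for Hist1h1d. It runs 2515 bases past it for Hist4h4, 2192 for Hist2h2be and 880.0 for Hist1h1c. These 9 had a median log2 fold change of -1.90, with a range of -3.75 (Hist1h1d) to 0.85 (Hist2h2be). The 7 with 100 bases or fewer, where the annotated mRNA ends near the stem-loop or before it, had a median of -3.61, with a range of -4.10 to -1.65 (Hist1h3a). Across the 16 genes, which share libraries and are not independent, Spearman's rho of length and fold change was 0.50. The limit of 100 bases was chosen after the values were seen, so no test is given, and the model does not show which transcript the cells made. Of 5 members listed as known for polyadenylated transcripts 3 were in the table, and these were Hist1h1c, Hist4h4 and Hist2h2be, the 3 with the highest fold changes. That list was drawn up with earlier results of these data known and is not independent support.

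Promoters of members that fell together are shown next. RefSeq windows on GRCm38.p6, the mm10 assembly, from 250 bases before to 50 after the gene start were matched for 22 of the 28 members through Entrez gene identifiers. No window was given for Hist2h2be, Hist2h4, Hist1h3a, Hist1h3f, Hist1h2al and Hist3h2bb-ps. The 150 bases before the start are printed 5′ to 3′ on the gene's strand for 3 H1 genes with small and large falls, the H2A and H2B genes with the largest falls and Hist4h4. Capitals mark matches, on either strand, to 6 motifs. These were TATAAA, where the basal transcription machinery binds, CCAAT, bound by the factor NF-Y, AAACACA, the element known from H1 promoters, ATTTGCAT, the octamer bound by OCT1, and the E2F-type letters TTTCCCGC and TTTGGCGC:
Hist1h1b: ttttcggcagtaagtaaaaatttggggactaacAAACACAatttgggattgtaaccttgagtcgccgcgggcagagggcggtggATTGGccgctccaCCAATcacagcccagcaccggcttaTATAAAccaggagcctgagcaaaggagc
Hist1h1e: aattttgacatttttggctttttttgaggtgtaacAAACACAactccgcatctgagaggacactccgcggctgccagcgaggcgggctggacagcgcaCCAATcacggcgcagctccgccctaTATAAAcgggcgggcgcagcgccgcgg
Hist1h1c: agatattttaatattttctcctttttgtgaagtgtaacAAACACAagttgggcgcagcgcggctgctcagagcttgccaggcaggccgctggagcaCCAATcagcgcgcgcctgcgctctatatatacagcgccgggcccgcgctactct
Hist1h2bb: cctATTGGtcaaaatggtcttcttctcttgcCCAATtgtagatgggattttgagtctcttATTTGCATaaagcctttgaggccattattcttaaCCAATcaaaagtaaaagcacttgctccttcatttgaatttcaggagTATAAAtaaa
Hist1h2ab: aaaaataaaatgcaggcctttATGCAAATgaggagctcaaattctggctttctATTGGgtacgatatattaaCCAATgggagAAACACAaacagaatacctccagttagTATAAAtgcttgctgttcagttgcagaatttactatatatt
Hist4h4: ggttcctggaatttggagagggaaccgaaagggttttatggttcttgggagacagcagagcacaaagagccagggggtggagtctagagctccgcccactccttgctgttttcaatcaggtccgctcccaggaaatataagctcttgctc
The windows printed are chr13:21780626-21780775, chr13:23622559-23622708, chr13:23738657-23738806, chr13:23746584-23746733, chr13:23750938-23751087 and chr6:136804432-136804581, of which those of Hist1h1b, Hist1h1e and Hist4h4 are on the minus strand.

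In the 300-base windows TATAAA was found for 16 of 22 members (72.7%), against 14.1% of 27025 genes with a RefSeq window. CCAAT was found for 18 (81.8%, against 37.8%), AAACACA for 9 (40.9%, against 7.25%) and ATTTGCAT for 7 (31.8%, against 1.74%). These counts take matches anywhere in the window. TATAAA lay 27 to 33 bases before the start in Hist1h1a, Hist1h1b and Hist1h1e, but 137 bases before it in Hist1h4i. In Hist1h2ak and Hist1h4a it lay past the start, at bases 22 and 42. All 7 octamer matches were in windows of H2A and H2B genes, among them Hist1h2bb, Hist1h2ab, Hist1h2ac and Hist1h2bm. Hist1h2aa and Hist1h2ba are transcribed away from each other and share 1 of these matches. The H1 box was found 112 to 122 bases before the start in Hist1h1b, Hist1h1c, Hist1h1d and Hist1h1e. These windows also held a CCAAT box 51 to 54 bases before the start, and they include steeply and less steeply falling H1 genes. AAACACA was not found for Hist1h1a. It was also found for Hist1h1t and for the H2A and H2B genes Hist1h2aa, Hist1h2ab, Hist1h2ba and Hist1h2bm. TTTCCCGC was found only for Hist1h4a, at 4 places (1 of 22 members, 4.55%, against 1.10%), and TTTGGCGC for 0 of 22 (against 0.533%). A match describes letters in a window and not a bound site, and RefSeq starts may not be the starts used in these cells.

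Genes of S phase fell as well. Of 24 listed genes of DNA replication and S phase entry 23 were measured and 21 tested. Of these, 18 fell and 0 rose in the limma fit, as with edgeR and at an unadjusted p of 0.05. No share of all tested genes was computed at that unadjusted p. Cdc6, Cdc45, Ccne1 and Ccne2 passed the filter only through the controls, so a lower level was built into their choice, and of the other 17 genes 14 fell, where 22.5% of all tested genes did. The median log2 fold change of the 21 was -2.45 and that of the 17 was -2.29, beside -2.40 for the clustered histones. Mcm7, a subunit of the replicative helicase, was at 499.6, 345 and 333 RPM in control replicates 1, 2 and 3 and at 48.6, 58.1 and 41.7 RPM in BMP9 replicates 4, 5 and 6, a change of -2.95 (SE 0.27, adjusted p = 4.6e-06). Lig1, the ligase that joins Okazaki fragments, changed by -3.41 (SE 0.34), Mcm4, of the same helicase, by -2.48 (SE 0.27), and Prim1, a primase subunit, by -2.57 (SE 0.29).

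The histone level was also set against these genes. The summed clustered histones were 1.505, 3.28 and 1.23 times the summed S phase genes in control replicates 1, 2 and 3 and 1.54, 1.08 and 1.16 times in BMP9 replicates 4, 5 and 6. The groups overlapped, and control replicate 2 stood apart. S phase genes were not higher in that library, where they summed to 2018 RPM against 2501 and 2143 RPM in control replicates 1 and 3. T and NK cell markers, lower in the BMP9 libraries as given above, all fell (14 of 14, median -2.85, against 22.5% of all tested genes). Of 12 tested macrophage and monocyte markers 12 rose (median 2.44, against 12.7% of all tested genes). Among them was Cd163, which passed the filter only through the BMP9 libraries. The part of these markers in the histone result was not tested.

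Genes that make, cut and load histones changed to different degrees. Of 22 tested histone chaperones and chromatin assembly genes 15 fell and 1 rose (median -1.26), where 22.5% of all tested genes fell and 12.7% rose. Dnajc9, a histone-binding co-chaperone, was at 102, 159.6 and 83.0 RPM in control replicates 1, 2 and 3 and at 13.2, 13.4 and 12.5 RPM in BMP9 replicates 4, 5 and 6, a change of -2.99 (SE 0.31, adjusted p = 1e-05). Hells, a chromatin remodeller, changed by -2.76 (SE 0.29), Chaf1a, the large subunit of the assembly factor CAF-1 that places new histones behind the replication fork, by -2.74 (SE 0.35), and Asf1b, which hands H3 and H4 to it, by -2.62 (SE 0.35). Chaf1a passed the filter only through the controls, so a lower level was built into its choice. Anp32e, which removes the variant H2A.Z, rose by 1.04 (SE 0.38, adjusted p = 0.045), with overlapping groups, and its call was lost with no filter and when control replicate 2, control replicate 3, BMP9 replicate 4 or BMP9 replicate 5 was left out, with changes of 0.65 to 1.14.

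Of 17 tested genes for transcription and 3′ processing of histone mRNA 7 fell and 0 rose in the limma fit (median -0.69). At an unadjusted p of 0.05 the counts were 10 and 0, for which no share of all tested genes was computed. With edgeR the counts were 3 and 0. By edgeR 1421 of all 9460 tested genes (15%) were lower, so the count of 3 of 17 in that fit is near the background, whereas 22.5% of all were lower by limma. Slbp, the stem-loop binding protein, was at 139.9, 109 and 149.5 RPM in control replicates 1, 2 and 3 and at 51.2, 71.4 and 47.7 RPM in BMP9 replicates 4, 5 and 6, a change of -1.22 (SE 0.28, adjusted p = 0.0034). Casp8ap2 (FLASH), which acts with U7 snRNP in 3′ end formation, changed by -1.17 (SE 0.31, adjusted p = 0.0088). Its call was lost in both settings for the run time stamp (-1.03). Npat, the S phase coactivator of these genes, changed by -1.21 (SE 0.35, adjusted p = 0.014). Ncbp1, of the cap-binding complex, changed by -1.11 (SE 0.32), with the call lost in edgeR (-0.78, adjusted p = 0.073), with no filter and without control replicate 1. Npat lost its call with no filter, in both settings for the run time stamp and without control replicate 2 (-0.88, adjusted p = 0.071).

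Replacement histones, which as a class can be made outside S phase, were few in the test. Of 15 listed, 11 were measured and 6 tested, of which 3 fell and 1 rose, where 22.5% of all tested genes fell and 12.7% rose, so 1 of 6 higher is near the background. H2afx, the variant H2A.X that marks DNA breaks and is also made in S phase, was at 157.5, 196 and 158 RPM in control replicates 1, 2 and 3 and at 32.9, 34.0 and 39.1 RPM in BMP9 replicates 4, 5 and 6, a change of -2.23 (SE 0.26, adjusted p = 2.3e-05). H2afv, an H2A.Z form, changed by -2.12 (SE 0.40, adjusted p = 0.00092), a call lost within the earlier stamp (-1.34, adjusted p = 0.052), and Cenpa, the H3 variant of centromeres, by -1.14 (SE 0.32, adjusted p = 0.012). Cenpa lost its call when control replicate 1 or BMP9 replicate 6 was left out, and within the earlier stamp its change was -0.56 (adjusted p = 0.26). H1f0, the linker histone H1.0 of non-dividing cells, was at 59.999, 65.8 and 76.5 RPM in controls and at 127, 97.7 and 118 RPM in BMP9 libraries, with no overlap. It rose by 0.75 (SE 0.26, adjusted p = 0.037), and the call was lost when control replicate 1, 2 or 3 or BMP9 replicate 4 or 6 was left out (0.67 to 0.85) and in both settings for the run time stamp (0.91). Like Hist2h2be, H1f0 lay higher in every BMP9 library than in any control, opposite to the clustered H1 genes.

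**Figure D5:**
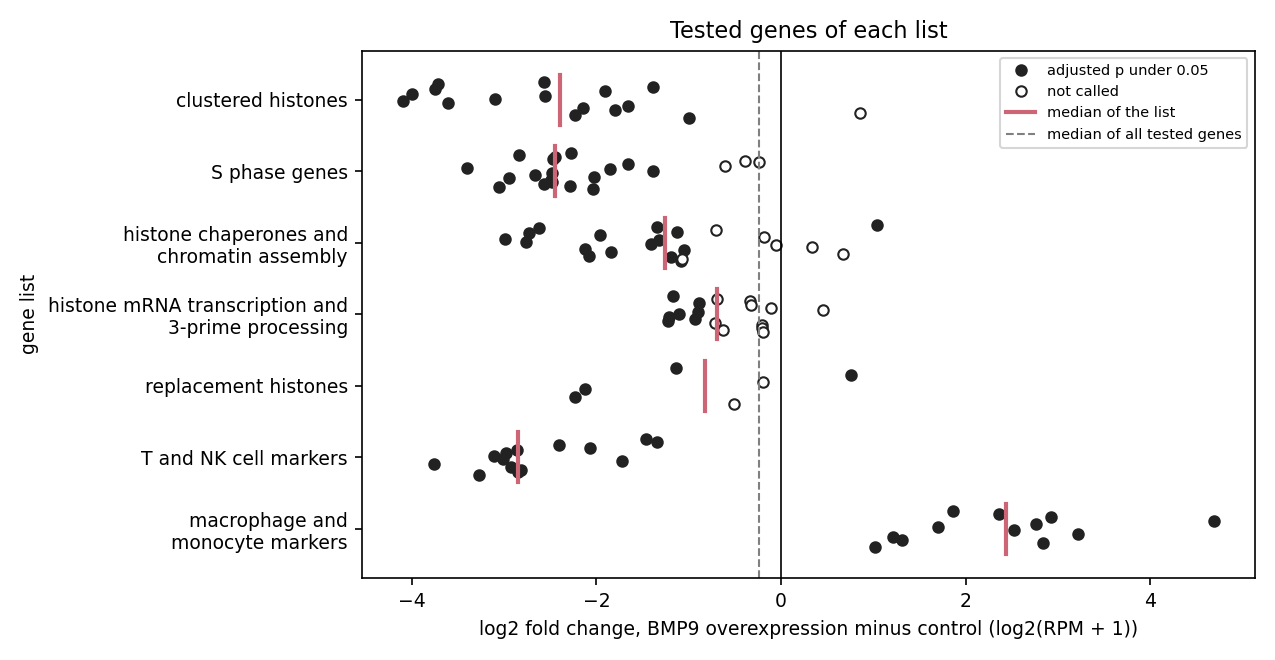
Log2 fold change, BMP9 overexpression minus control, of the tested genes of each list, one point per gene, filled where the adjusted p (limma) is under 0.05. The red bar is the median of the list and the dashed line that of all tested genes; the medians of the clustered histones and the S phase genes are -2.40 and -2.45, and that of the 12 macrophage and monocyte markers is 2.44.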

How the data were processed

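The deposited table holds RPM: the authors divided the reads of a gene by the library total, judging from the values. Libraries came from the Ion AmpliSeq mouse transcriptome panel on Ion Torrent, per the labels' protocols, and the submitters' processing notes name mm10. For the aligner, the counting tool, cDNA priming and reads matching several genes, the method is not given in the sources used here. Within a library all nonzero values were whole multiples of 1 read: 100% came out whole within 0.05 reads, which gave the depths and let a count test run as an alternative, in which 1421 genes were lower and 1693 higher. Since the reads are PCR copies and carry no molecular identifiers, the floors of 3 reads cover counting error alone.

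Groups and replicate numbers came from the titles. All 6 libraries entered a limma-trend fit of log2(RPM + 1), run with limma 3.58.1 under R 4.3.3. Genes had to reach 5 RPM in 3 or more libraries, p-values were adjusted by Benjamini-Hochberg over every tested gene, and 0.05 was the threshold. Every adjusted p is from this fit unless another tool or setting is named, and fold changes on this scale understate changes of low genes. The members, lists and rule for named genes were chosen with earlier results of these data known. Values are given for the 4 members of each type with the highest mean, those with the largest and smallest change, every tested member not called lower, the listed polyadenylated and testis members, and up to 4 genes with the smallest p of each other list with any called gene that moved against it. Sums per type cover all measured members. Over all tested genes 12.7% were higher and 22.5% lower. Of the neutrophil and platelet marker lists, 4 of 4 and 3 of 3 tested genes were higher and 0 lower. Of the B cell, epithelial and fibroblast lists, 1 of 4, 1 of 3 and 2 of 3 were higher and 0 lower. Of 4 endothelial markers 1 was higher and 1 lower. Among the called genes of these lists, S100a8, Ppbp, Krt18 and Dcn passed the filter only through the BMP9 libraries. Kdr passed only through the controls, and this fixed the direction of each. The fits were tested on simulated data. Alternatives were pseudocounts of 0.5 and 5, no filter, a mean of at least 20 RPM, TMM factors, edgeR 4.0.16 (quasi-likelihood) on recovered reads, a covariate for the run time stamp, only the libraries of the earlier stamp, and leaving out each library. Coordinates and transcripts are GENCODE M21, and promoters RefSeq on GRCm38.p6. Coding sequences were aligned globally (Biopython 1.88).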

Additional observations from a re-analysis of the deposited data

How the results depend on the processing

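Of the 16 tested clustered histone genes 11 kept their direction and call in every alternative setting that tested them (11 of 14 settings for Hist1h2bm and all 14 for the other 10), and no member reversed. The exceptions were Hist1h1c, Hist1h1e, Hist2h4, Hist4h4 and Hist2h2be. The number of members called lower was 11 to 15 over all settings. The number higher was 1 with TMM factors and 1 with edgeR, in both cases Hist2h2be. The median of the members was -1.72 without the filter, where 24 were tested, and -2.58 to -1.77 when a library was left out. The log2 ratio of the H4 sums was -2.42 to -1.47 when a library was left out. Processing genes called lower numbered 2 without the filter, 4 of 17 with TMM factors, 3 of 17 with edgeR and 3 to 7 with a library left out. The counts with TMM factors and edgeR are little above the shares of all tested genes. Chaperones called higher numbered 0 without the filter, 2 with edgeR and 0 to 2 with a library left out. Replacement histones called higher numbered 0 with the stamp as a covariate and 0 within the earlier stamp, where 1 was called lower, and 0 to 1 with a library left out. The cause of these changes was not tested. In both settings for the stamp the contrast rests on BMP9 replicate 4, whose spread is assumed to be that of the other libraries. No paired analysis was possible because the groups share no replicate number. Depth limits the members with under 5 RPM.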
